A study of Mus musculus with 8 samples.

Results

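The aryl hydrocarbon receptor (AhR) pathway and the phenol sulfotransferase gene *Sult1a1* were followed in C3H10T1/2 cells, a mesenchymal line derived from C3H mouse embryos, in 4 groups of 2 RNA-seq libraries. The 8 genes were taken by symbol from the gene table: the receptor *Ahr*, its partner *Arnt*, its repressor *Ahrr*, the target genes *Cyp1a1*, *Cyp1b1*, *Tiparp* and *Nqo1*, and *Sult1a1*. All 8 were among the 18605 genes of the table, and 6 of them were among the 13470 genes with enough counts to be tested. *Ahrr* and *Cyp1a1* were not. Cells labelled as a non-target control (NC) and cells labelled as a knockdown of *Nap1l2*, a nucleosome assembly protein gene (KD-Nap1l2), were collected uninduced and again on day 7 of osteogenic induction, where the groups are named NC-7d and KD-Nap1l2-7d. The study's methods describe lentiviral shRNAs for knockdown in this line, the vector of the NC cells is not given in the sources used here, and the induction medium contained dexamethasone, ascorbic acid and β-glycerophosphate. How many shRNAs or clones stood behind each group, and whether the libraries of a group came from separate cultures, is not given in the sources used here, so p-values measure only the spread between these libraries, which may be technical. The induced groups differ from the others in medium and in time in culture, which cannot be told apart.

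AhR is a ligand-activated transcription factor of the bHLH-PAS family. Without a ligand it is held in the cytosol by HSP90 and the co-chaperone p23 (*Ptges3*). With a ligand, such as a dioxin, a polycyclic hydrocarbon or a tryptophan metabolite, it enters the nucleus, pairs with ARNT and binds the xenobiotic response element (XRE), whose core is GCGTG. Its target genes encode the cytochromes CYP1A1 and CYP1B1, the quinone reductase NQO1, and the feedback inhibitors AHRR and TIPARP. CYP1B1 is known as the main CYP1 enzyme of mouse embryo fibroblasts, C3H10T1/2 included. SULT1A1 transfers sulfate from the donor PAPS to small phenols, among them hormones and drugs.

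Promoters came from RefSeq (GRCm38.p6, 250 bases before to 50 bases after the gene start, 300 bases in all) and matched 7 of the 8 genes, all but *Ahr*. The XRE core (GCGTG, or CACGC on the other strand) and, because the induction medium held dexamethasone, a glucocorticoid response half-site (AGAACA, or TGTTCT on the other strand) were searched on both strands, and no match of the first overlapped a match of the second. Of all 32851 promoters, 32.4% held at least 1 XRE core and 19% at least 1 half-site. Among the 13387 promoters of tested genes these shares were 48.5% and 12.8%. The share of promoters with 2 or more half-sites was not counted. The XRE core was found in 5 of the 7, namely *Ahrr*, *Arnt*, *Cyp1a1*, *Cyp1b1* and *Tiparp*. The 4 promoters below are shown because they pair the most XRE cores (*Ahrr*, 3, as in 3.91% of all promoters with 3 or more) and the single cores of 2 expressed target genes with the promoter of *Sult1a1*, which held no XRE core and 2 half-sites. Capitals mark the matches, and each sequence is written 5′ to 3′ along its gene's strand. They lie at chr13:74292282-74292581 (minus strand, *Ahrr*), chr17:79715012-79715311 (minus, *Cyp1b1*), chr3:65528197-65528496 (plus, *Tiparp*) and chr7:126676369-126676668 (minus, *Sult1a1*).
Ahrr: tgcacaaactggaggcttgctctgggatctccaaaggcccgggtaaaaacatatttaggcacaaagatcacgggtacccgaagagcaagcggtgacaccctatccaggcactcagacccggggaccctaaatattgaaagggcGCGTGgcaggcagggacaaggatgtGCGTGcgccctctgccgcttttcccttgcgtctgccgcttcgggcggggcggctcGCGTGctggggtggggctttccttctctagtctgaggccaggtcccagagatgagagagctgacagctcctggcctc
Cyp1b1: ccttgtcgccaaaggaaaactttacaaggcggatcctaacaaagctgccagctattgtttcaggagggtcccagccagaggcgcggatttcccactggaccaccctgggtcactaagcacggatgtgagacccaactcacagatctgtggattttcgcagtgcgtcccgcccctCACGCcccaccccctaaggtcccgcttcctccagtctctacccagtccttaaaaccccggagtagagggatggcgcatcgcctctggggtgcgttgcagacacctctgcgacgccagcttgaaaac
Tiparp: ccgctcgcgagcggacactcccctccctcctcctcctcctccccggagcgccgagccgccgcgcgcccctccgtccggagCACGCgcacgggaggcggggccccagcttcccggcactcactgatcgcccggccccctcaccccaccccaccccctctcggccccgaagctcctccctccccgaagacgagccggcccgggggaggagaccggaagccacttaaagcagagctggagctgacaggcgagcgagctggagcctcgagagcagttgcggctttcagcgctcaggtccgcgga
Sult1a1: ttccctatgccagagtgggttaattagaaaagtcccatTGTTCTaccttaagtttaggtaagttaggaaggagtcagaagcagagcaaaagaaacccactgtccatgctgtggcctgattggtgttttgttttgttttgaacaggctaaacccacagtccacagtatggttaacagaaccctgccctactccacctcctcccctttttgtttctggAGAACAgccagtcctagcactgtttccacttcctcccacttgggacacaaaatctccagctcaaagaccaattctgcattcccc
Positions were counted from 0 at the RefSeq gene start, which is not always the GENCODE gene start given below. The match in *Cyp1b1* began at -76 and that in *Tiparp* at -170, and the half-sites of *Sult1a1* began at -212 and -34. These are matches of letters and not measured binding sites, and no match says only that the letters are not in this window.

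The libraries held 17420284 to 19427359 estimated counts each, so that 0 counts allow up to 3 counts, or 0.154 to 0.172 CPM (counts scaled to library size), which covers counting error only. *Nap1l2* itself had 3 counts in each NC library, 2 and 7 in KD-Nap1l2, 15 and 5 in NC-7d and 7 and 13 in KD-Nap1l2-7d. In the edgeR fit described below, its log2 fold change for KD-Nap1l2 against NC was 0.64 (standard error 0.98) before induction. At 7 days it was -0.0012 (standard error 0.80). A lower level in the libraries labelled KD-Nap1l2 was thus not seen, and so few counts leave the size of any difference uncertain. Of 10 mesenchymal markers 9 had a mean above 1 FPKM (fragments scaled to transcript length and library size), the exception being *Nt5e*, and their summed level was 4139 to 8382 FPKM, lower in the 4 induced libraries (4139 to 5460) than in the 4 others (6197 to 8382). This sum came mostly from *Vim*, *Ly6a*, *Col1a1* and *Col1a2*, and the markers did not move alike. Group means of *Pdgfra* and *Eng* were higher after induction in both NC and KD-Nap1l2. Those of *Vim*, *Thy1*, *Col1a1*, *Col1a2* and *Prrx1* were lower in both, and *Pdgfrb* and *Ly6a* moved in opposite directions in NC and KD-Nap1l2. Summed leukocyte markers reached 2.77 to 9.13 FPKM, with *Cd68* as the only gene above 1 and *Ptprc*, *Csf1r* and *Cd3e* below 1 in each library, and the highest sums (5.82 and 9.13) were those of KD-Nap1l2-7d. Endothelial markers summed to 0.34 to 1.56 and epithelial markers to 0.44 to 2.21 FPKM. In bulk libraries fewer cells of a type and less RNA per cell cannot be told apart, and the part of these marker levels in the results below was not tested. KD-Nap1l2 replicate 2 stood apart on the second principal component (-45.03, against -9.18 for replicate 1), and NC-7d replicate 2 on the third (-42.62, against 10.78), so values without these libraries are given where they moved a fold change of a called gene by over 1.5 times, and the calls lost without them are named.

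*Ahr* (Entrez Gene 11622; chr12:35497974-35535038, minus strand, GRCm38) had its highest levels in the KD-Nap1l2 libraries. It measured 10.2 and 14.1 FPKM there, 3.06 and 2.45 in NC, 1.92 and 1.90 in NC-7d, and 2.85 and 2.68 in KD-Nap1l2-7d. Both KD-Nap1l2 libraries were above all 6 others, NC and KD-Nap1l2-7d overlapped, and NC-7d was the lowest group. The group means were 12.2 ± 2.7 FPKM in KD-Nap1l2, 2.77 ± 0.12 in KD-Nap1l2-7d, 2.76 ± 0.43 in NC and 1.91 ± 0.014 in NC-7d (SD, n = 2 each). These counts were fitted with edgeR, whose log2 fold changes are given with their standard errors (SE). KD-Nap1l2 exceeded NC 4.42-fold, or 2.14 (SE 0.22) on the log2 scale, and 1.82 (SE 0.17) without KD-Nap1l2 replicate 2.

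The genes were taken as selected on that comparison. Which values chose them is not stated, and earlier results of all comparisons were known when they were chosen, so tests of *Ahr* and *Sult1a1* in the other comparisons may not be independent of the choice either. *Ahr*, higher, and *Sult1a1*, lower, were 2 of the 11 genes called between KD-Nap1l2 and NC before induction, out of 13470 tested (0.0817%), and their difference there is therefore given as a description. Without KD-Nap1l2 replicate 2 neither was called (adjusted p = 0.0837 for *Ahr* and 0.106 for *Sult1a1* in edgeR's quasi-likelihood test). The last gene inside the threshold of an adjusted p of 0.05 was *Col2a1* (2.56 on the log2 scale, adjusted p = 0.0478 in edgeR's quasi-likelihood test), and the first outside was *Igf2* (-2.10, adjusted p = 0.0617). In KD-Nap1l2 cells, *Ahr* was 4.41-fold lower after 7 days than before (-2.14 on the log2 scale, SE 0.22), and -1.82 (SE 0.17) without KD-Nap1l2 replicate 2. In NC it was 1.45-fold lower (-0.53, SE 0.22). Both comparisons share libraries with the comparison taken as the selecting one and are given without a test. Almost all *Ahr* counts were assigned to 1 transcript, NM_013464.4. A lincRNA, *Gm48236*, lies on the opposite strand across the start of *Ahr* (chr12:35534421-35535038), and whether the counting used strand is not given in the sources used here.

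**Figure D1:**
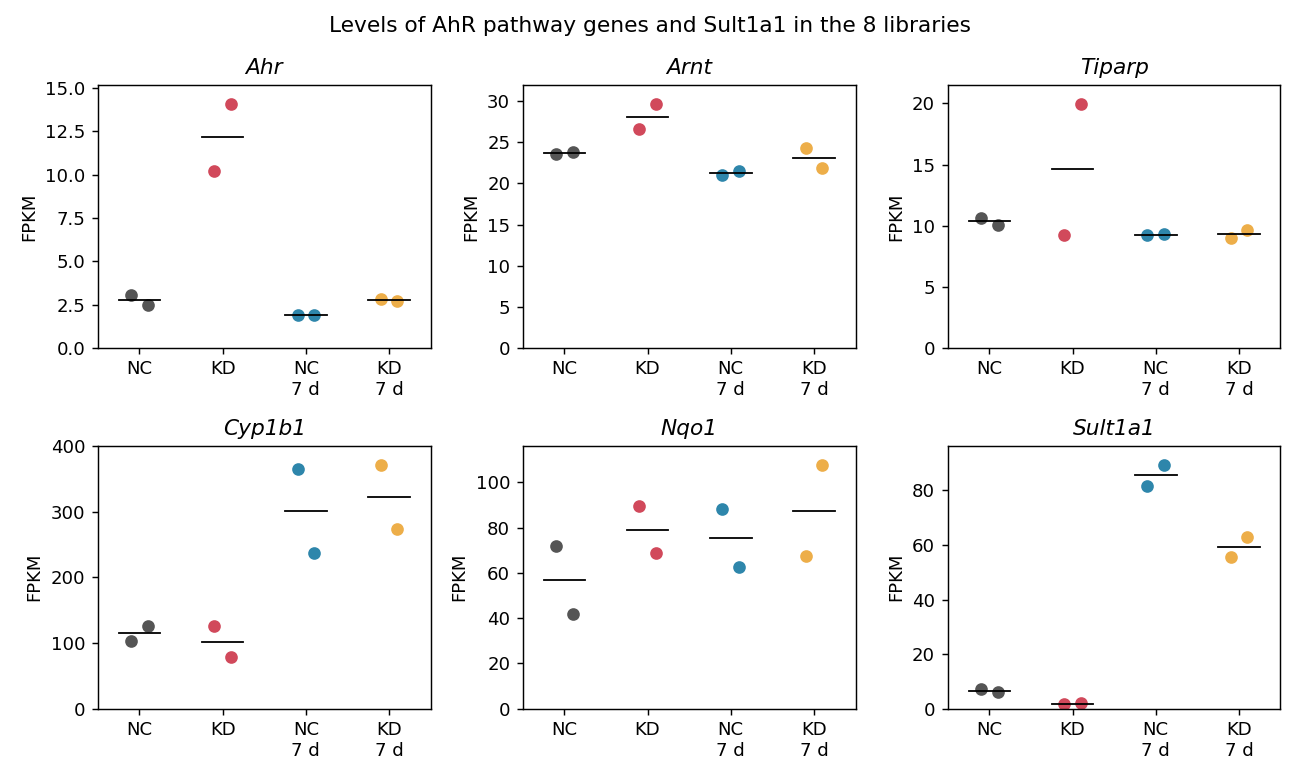
FPKM (vertical axes, linear from 0) of 6 genes in each of the 8 libraries, with points for libraries and lines for the means of the 2 libraries of a group. KD stands for KD-Nap1l2 and 7 d for 7 days of induction. *Ahr* is highest in both KD-Nap1l2 libraries (10.2 and 14.1), *Sult1a1* in both NC-7d libraries (81.8 and 89.3), *Cyp1b1* is higher in all 4 induced libraries, and the high *Tiparp* value comes from 1 library.

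*Arnt* (Entrez Gene 11863, chr3:95434388-95497240, plus strand), a partner of AhR, was more even. It measured 23.6 and 23.9 FPKM in NC, 26.6 and 29.6 in KD-Nap1l2, 21.1 and 21.5 in NC-7d and 24.3 and 21.9 in KD-Nap1l2-7d. No comparison of *Arnt* passed the test: the log2 fold changes were 0.24 (SE 0.13) for KD-Nap1l2 against NC, 0.13 (SE 0.13) for KD-Nap1l2-7d against NC-7d, -0.15 (SE 0.13) for induction in NC and -0.27 (SE 0.13) for induction in KD-Nap1l2, with adjusted p-values of 0.459, 0.879, 0.518 and 0.197 in edgeR's quasi-likelihood test. Per length, *Arnt* exceeded *Ahr* in each library, with a ratio of 7.71 and 9.74 in NC, 2.59 and 2.11 in KD-Nap1l2, 11.0 and 11.3 in NC-7d and 8.52 and 8.16 in KD-Nap1l2-7d. The ratio of these FPKM levels was thus lowest in the 2 KD-Nap1l2 libraries, where *Ahr* was high. The assignment of *Arnt* counts to its transcripts was unsteady: XM_011239998.2 took 47.3 to 59.4% of them and NM_009709.4 took 9.6 to 38%.

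The list of the receptor complex also held *Arnt2*, a second partner, *Hsp90aa1*, *Hsp90ab1* and *Ptges3*, and all 7 of its genes were tested. The chaperones were abundant, with *Hsp90ab1* at 640 to 812 FPKM and *Hsp90aa1* at 224 to 311 FPKM, and *Ptges3* lay at 78.2 to 102.7 FPKM. *Arnt2* was expressed at low levels, 4.68 and 5.11 FPKM in NC, 3.55 and 2.59 in KD-Nap1l2, 1.15 and 2.43 in NC-7d and 1.40 and 1.76 in KD-Nap1l2-7d. It fell on induction in NC by 1.46 on the log2 scale (SE 0.31, adjusted p = 0.0287 in edgeR's quasi-likelihood test), where 3.38% of all tested genes were called lower and 4.83% higher. This call was lost without NC replicate 1 (-1.51, adjusted p = 0.147), NC replicate 2 (-1.41, 0.107), NC-7d replicate 1 (-1.04, 0.0576), KD-Nap1l2-7d replicate 1 (-1.46, 0.0582) or KD-Nap1l2-7d replicate 2 (-1.46, 0.0603), and in a fit of only the libraries compared (-1.46, 0.0680), with adjusted p from 0.0002 to 0.147 over 17 alternatives. Without NC-7d replicate 2, which stood apart, it was -2.05 (adjusted p = 0.00667). In KD-Nap1l2 the fold change of *Arnt2* was -0.93 (SE 0.31, adjusted p = 0.0828). The list's median log2 fold change was -0.15 on induction in NC and -0.14 in KD-Nap1l2, beside -0.0035 and -0.007 over all tested genes. It was 0.13 and 0.046 for the libraries labelled KD-Nap1l2 against their controls before induction and at 7 days, beside 0.011 and -0.0056. *Ahr* enters these medians, and the median before induction contains the comparison taken as the selecting one. The induction medians share libraries with that comparison.

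Among the target genes, *Cyp1b1* (Entrez Gene 13078; chr17:79701537-79715061, minus strand) was the most abundant and rose on induction in both cell populations. It measured 103.7 and 125.7 FPKM in NC and 364.4 and 237.0 in NC-7d, and 125.6 and 78.1 in KD-Nap1l2 and 371.0 and 274.2 in KD-Nap1l2-7d. All 4 induced libraries were above all 4 uninduced ones, and the NC and KD-Nap1l2 libraries overlapped at both times. The rise was 2.63-fold in NC (1.40 on the log2 scale, SE 0.29, adjusted p = 0.0270) and 3.21-fold in KD-Nap1l2 (1.68, SE 0.29, adjusted p = 0.0110) in edgeR's quasi-likelihood test. In KD-Nap1l2, 6.84% of all tested genes were called higher on induction and 7.36% lower. Of the 4 tested genes without a call in the comparison taken as the selecting one, *Arnt*, *Cyp1b1*, *Tiparp* and *Nqo1*, *Cyp1b1* was the 1 that passed in each induction comparison. The difference between both rises was 0.29 (SE 0.40, adjusted p = 0.902). The call in NC was lost without NC replicate 1 (1.27, adjusted p = 0.204), NC replicate 2 (1.53, 0.0889), NC-7d replicate 1 (1.01, 0.0995), KD-Nap1l2-7d replicate 1 (1.40, 0.0508) or KD-Nap1l2-7d replicate 2 (1.39, 0.05003), with adjusted p from 6.48e-06 to 0.204 over 17 alternatives, and it was 1.70 without NC-7d replicate 2. The call in KD-Nap1l2 was lost without KD-Nap1l2-7d replicate 1 (1.46, adjusted p = 0.0866, range 1.21e-08 to 0.0866), and its value was 1.43 (adjusted p = 0.0470) without KD-Nap1l2 replicate 2. For KD-Nap1l2 against NC, *Cyp1b1* differed by -0.19 (SE 0.28) before induction and by 0.098 (SE 0.28) at 7 days, and neither passed (adjusted p = 0.807 and 0.967).

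*Tiparp* (Entrez Gene 99929; chr3:65528410-65555518, plus strand), a mono-ADP-ribosyltransferase that limits AhR signalling, was even apart from 1 library. It measured 10.6 and 10.1 FPKM in NC, 9.27 and 19.9 in KD-Nap1l2, 9.27 and 9.28 in NC-7d and 9.02 and 9.61 in KD-Nap1l2-7d. The high value was that of KD-Nap1l2 replicate 2, the library that stood apart on the second principal component. The fold change of KD-Nap1l2 against NC was 0.51 on the log2 scale (SE 0.33, adjusted p = 0.542 in edgeR's quasi-likelihood test), and it was 1.003 (adjusted p = 0.0193) without KD-Nap1l2 replicate 1 and -0.23 (adjusted p = 0.621) without replicate 2, with a range of 0.0193 to 0.800 over 17 alternatives. Induction gave -0.16 (SE 0.33, adjusted p = 0.800) in NC and -0.66 (SE 0.33, adjusted p = 0.207) in KD-Nap1l2, and the latter was -1.15 (adjusted p = 0.0039) without KD-Nap1l2 replicate 1 and 0.080 without replicate 2.

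*Nqo1* (Entrez Gene 18104; chr8:107388225-107403206, minus strand), which is also a target of Nrf2, varied within groups about as much as between them. It measured 71.9 and 42.0 FPKM in NC, 89.5 and 68.8 in KD-Nap1l2, 88.2 and 62.8 in NC-7d and 67.5 and 107.7 in KD-Nap1l2-7d. Its groups overlapped in both comparisons of KD-Nap1l2 with NC and in both induction comparisons, and the log2 fold changes were 0.46 (SE 0.32) and 0.22 (SE 0.32) for KD-Nap1l2 against NC before induction and at 7 days, and 0.40 (SE 0.32) and 0.16 (SE 0.32) for induction in NC and KD-Nap1l2, with adjusted p-values from 0.486 to 0.934 in edgeR's quasi-likelihood test.

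*Cyp1a1* (Entrez Gene 13076; chr9:57687928-57703824, plus strand), the target gene most used as a readout of AhR activity, was close to the detection limit. It had 1 count or 0 in each uninduced library, 2 in each NC-7d library, and 6 and 4 in KD-Nap1l2-7d. The KD-Nap1l2-7d libraries alone were above 3 counts, at 0.13 and 0.09 FPKM, and these counts were too few to test. *Ahrr* (Entrez Gene 11624; chr13:74211118-74292331, minus strand), the repressor that competes with AhR for ARNT and whose promoter held 3 XRE cores, had 1 count in NC replicate 1 and 0 in the 7 other libraries, which allows up to 3 counts in each. In KD-Nap1l2, where *Ahr* was high, *Cyp1a1* had 0 and 1 counts and *Ahrr* had 0 in each library. A rise of either gene to well above 3 counts was thus not seen there, and a smaller difference was not detectable at this depth.

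The wider list of 13 AhR target genes had 9 tested members, and *Cyp1a1*, *Cyp1a2*, *Ahrr* and *Gsta2* were not tested. *Ugt1a6a* and *Ugt1a6b* share most of their sequence, so their counts are uncertain. On induction 2 of the 9 were called higher in NC and 2 in KD-Nap1l2, *Cyp1b1* and *Serpinb2* in each case, beside 4.83% and 6.84% of all tested genes, and 0 were called lower. *Serpinb2*, which encodes a plasminogen activator inhibitor, measured 0.16 and 0.24 FPKM in NC, 1.48 and 2.17 in NC-7d, 0.54 and 0.22 in KD-Nap1l2 and 5.18 and 3.49 in KD-Nap1l2-7d. It rose by 3.17 on the log2 scale in NC (SE 0.47, adjusted p = 0.00855) and by 3.52 in KD-Nap1l2 (SE 0.43, adjusted p = 0.00319) in edgeR's quasi-likelihood test, and the call in NC was lost without NC replicate 1 (2.95, adjusted p = 0.0967, range 3.87e-06 to 0.0967). The uninduced libraries held 6 to 19 counts of it, and the value in KD-Nap1l2 was 4.22 without KD-Nap1l2 replicate 1. The list's median was 0.39 in NC and 0.41 in KD-Nap1l2, and it was 0.25 and 0.098 for KD-Nap1l2 against NC before induction and at 7 days, with 0 of the 9 called in either and 1 of the 9 at an unadjusted p under 0.05 in each, beside 13.7% and 7.85% of all tested genes.

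*Sult1a1* (Entrez Gene 20887; chr7:126672865-126676432, minus strand) spanned the widest range of the 6 tested genes as a ratio of highest to lowest FPKM. It measured 7.05 and 6.16 FPKM in NC and 1.60 and 2.09 in KD-Nap1l2, against 81.8 and 89.3 in NC-7d and 55.6 and 63.0 in KD-Nap1l2-7d. The order of the group means was NC-7d (85.5 ± 5.3 FPKM), KD-Nap1l2-7d (59.3 ± 5.2), NC (6.61 ± 0.63) and KD-Nap1l2 (1.85 ± 0.35; SD, n = 2 each), and no neighbours in this order overlapped. KD-Nap1l2 was 2.82-fold lower than NC before induction (-1.50 on the log2 scale, SE 0.15; -1.59 without KD-Nap1l2 replicate 2), which is the comparison taken as the selecting one. Between the uninduced and the 7-day libraries *Sult1a1* was 11.6-fold higher in NC-7d (3.53, SE 0.14) and 22.9-fold higher in KD-Nap1l2-7d (4.52, SE 0.15). These comparisons share the uninduced libraries with it and are given as descriptions. Of the genes on the opposite strand, *Sgf29* overlaps the end of *Sult1a1* (chr7:126672865-126672925), and its fold change for KD-Nap1l2 against NC was -0.066 (SE 0.25) before induction and -0.19 (SE 0.24) at 7 days.

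The *Sult1a1* counts were assigned to 3 transcripts, all higher in the 4 induced libraries and highest in NC-7d, of which 2 were lower in KD-Nap1l2 than in NC before induction and 1 overlapped. NM_133670.1, with 7 exons in GENCODE vM21, had 91.1 and 105.7 estimated counts in NC, 22.7 and 26.9 in KD-Nap1l2, 1055 and 1197 in NC-7d and 760.9 and 847.4 in KD-Nap1l2-7d. XM_017322084.1 had 61.7 and 35.7 counts in NC, 4.97 and 14.3 in KD-Nap1l2, 653.1 and 788.6 in NC-7d and 452.1 and 492.3 in KD-Nap1l2-7d. Both were lower in both KD-Nap1l2 libraries than in either NC library. XM_006507538.3 overlapped between these groups, with 24.6 and 32.2 counts in NC beside 29.4 and 20.1 in KD-Nap1l2, and it had 87.2 and 82.9 in NC-7d and 61.4 and 60.1 in KD-Nap1l2-7d. Its share of the *Sult1a1* counts was 13.9 and 18.5% in NC, 51.5 and 32.8% in KD-Nap1l2 and 4.0 to 4.9% in the 4 induced libraries. The lower *Sult1a1* of the KD-Nap1l2 libraries before induction thus lay in 2 of the 3 transcripts. These are estimates that split shared reads, with few counts behind each before induction, and no test was made on them.

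**Figure D2:**
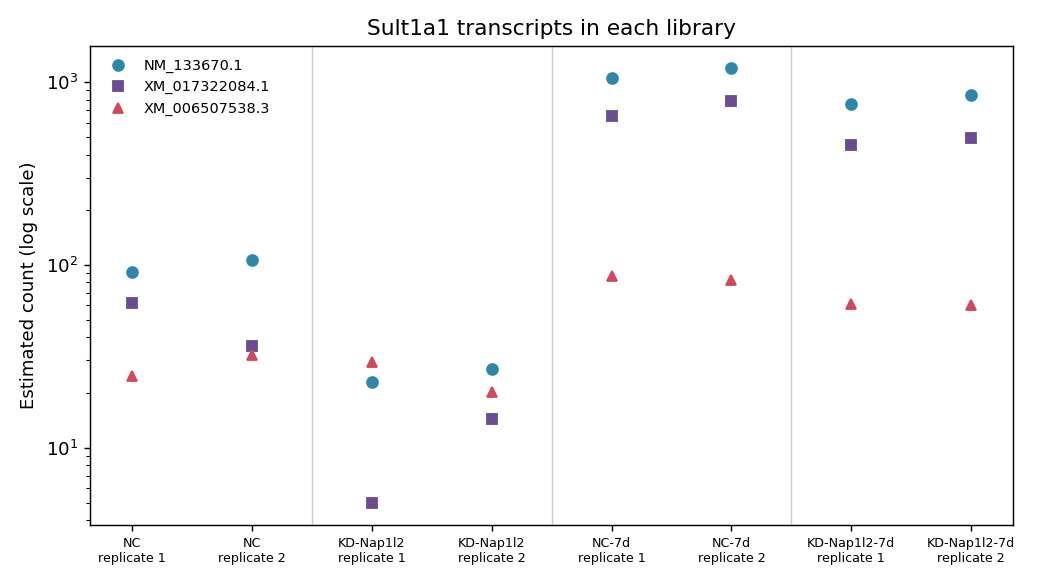
Estimated counts (vertical axis, log scale) of the 3 *Sult1a1* transcripts in each of the 8 libraries, with 1 symbol per transcript. NM_133670.1 and XM_017322084.1 are lower in KD-Nap1l2 than in NC, while XM_006507538.3 lies at 20.1 to 32.2 counts in all 4 uninduced libraries.

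Sulfation needs PAPS, made by *Papss1* and *Papss2* and carried into the Golgi by *Slc35b2* and *Slc35b3*. Of the 14 genes of the sulfotransferase and PAPS list, 6 were tested: *Sult1a1*, *Sult5a1* and these 4. The 8 others were not tested. *Sult5a1*, the other cytosolic sulfotransferase tested, lay at 0.10 to 3.24 FPKM, below *Sult1a1* in each library. Apart from *Sult1a1*, induction raised *Sult5a1* in NC (2.13 on the log2 scale, SE 0.45, adjusted p = 0.0296) and in KD-Nap1l2 (3.25, SE 0.52, adjusted p = 0.00827) and lowered *Papss2* in NC (-1.20, SE 0.27, adjusted p = 0.0335) and in KD-Nap1l2 (-1.35, SE 0.27, adjusted p = 0.0172), while *Papss1* was called lower in KD-Nap1l2 (-0.90, SE 0.21, adjusted p = 0.0271) and had -0.29 (SE 0.20, adjusted p = 0.429) in NC, all in edgeR's quasi-likelihood test. The uninduced KD-Nap1l2 libraries held only 10 and 2 counts of *Sult5a1*, so the size of its rise there is uncertain, and it was 4.73 without KD-Nap1l2 replicate 1 and 2.56 with replicate 2 of that group left out. The difference between both inductions of *Papss1* was -0.61 (SE 0.29, adjusted p = 0.718). *Papss2* measured 10.9 and 11.6 FPKM in NC, 3.25 and 6.66 in NC-7d, 12.4 and 11.2 in KD-Nap1l2 and 4.70 and 4.5 in KD-Nap1l2-7d. Of the 4 genes for PAPS, *Papss2* was thus called lower on induction in both NC and KD-Nap1l2, and *Papss1* in KD-Nap1l2 only. *Slc35b2* and *Slc35b3* were not called in either. Without NC replicate 1 the NC calls of *Sult5a1* (adjusted p = 0.192, range 0.00388 to 0.192) and *Papss2* (0.163, range 0.000607 to 0.163) were lost, and without KD-Nap1l2-7d replicate 2 the KD-Nap1l2 calls of *Sult5a1* (0.0598), *Papss1* (0.162) and *Papss2* (0.126) were lost, each the highest adjusted p over its alternatives. Leaving out NC replicate 2, KD-Nap1l2-7d replicate 1 or KD-Nap1l2-7d replicate 2 also ended both NC calls, and either NC-7d library that of *Sult5a1*, at log2 fold changes of 2.06 to 2.19 for *Sult5a1*. The NC call of *Papss2* was also lost in a fit of only the libraries compared (-1.20, adjusted p = 0.0931), and its value was -0.79 without NC-7d replicate 1 and -1.76 with replicate 2 of that group left out. KD-Nap1l2-7d replicate 1 also ended all 3 KD-Nap1l2 calls, KD-Nap1l2 replicate 2 those of *Papss1* and *Papss2*, and either NC library that of *Papss1*. *Papss1* in KD-Nap1l2 was -0.56 (adjusted p = 0.0753) without KD-Nap1l2 replicate 2. The list's median, with *Sult1a1* in it, was -0.22 in NC and -0.23 in KD-Nap1l2.

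At 7 days the comparison of KD-Nap1l2-7d with NC-7d shares no library with the one taken as the selecting comparison, although its results were known when the genes were chosen. *Ahr* measured 2.85 and 2.68 FPKM in KD-Nap1l2-7d and 1.92 and 1.90 in NC-7d, a 1.45-fold higher level (0.54 on the log2 scale, SE 0.22, unadjusted p = 0.0395, adjusted p = 0.602 in edgeR's quasi-likelihood test). *Sult1a1* measured 55.6 and 63.0 FPKM in KD-Nap1l2-7d and 81.8 and 89.3 in NC-7d, a 1.43-fold lower level (-0.51, SE 0.12, unadjusted p = 0.00304, adjusted p = 0.465 in the same test). Neither passed the adjustment over all genes, and neither passed under DESeq2 or limma. Of the 6 tested genes, 0 were called by edgeR's quasi-likelihood test, as were 0 of all 13470 (0%), and 2 had an unadjusted p under 0.05, beside 7.85% of all tested genes. *Ahr*, *Arnt* and *Sult1a1*, 3 of the 6, had groups that did not overlap, beside 42.1% of all tested genes.

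Whether the difference between KD-Nap1l2 and NC changed with induction was fitted as a difference of differences. For *Ahr* it was -1.61 on the log2 scale (SE 0.30) and for *Sult1a1* 0.99 (SE 0.19), so that both distances to NC were smaller at 7 days. These values contain the comparison taken as the selecting one and are descriptions. For *Arnt*, *Cyp1b1*, *Tiparp* and *Nqo1* the values were -0.12 (SE 0.18), 0.29 (SE 0.40), -0.50 (SE 0.46) and -0.24 (SE 0.46), with adjusted p-values of 0.850 to 0.933 in edgeR's quasi-likelihood test. The value of *Tiparp* was 0.24 without KD-Nap1l2 replicate 2. Of the 6 genes 0 were called, as were 0 of all genes (0%), and 2 of the 6, *Ahr* and *Sult1a1*, had an unadjusted p under 0.05, beside 7.04% of all tested genes. Since the comparison taken as the selecting one enters this one, nothing is read from that count.

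**Figure D3:**
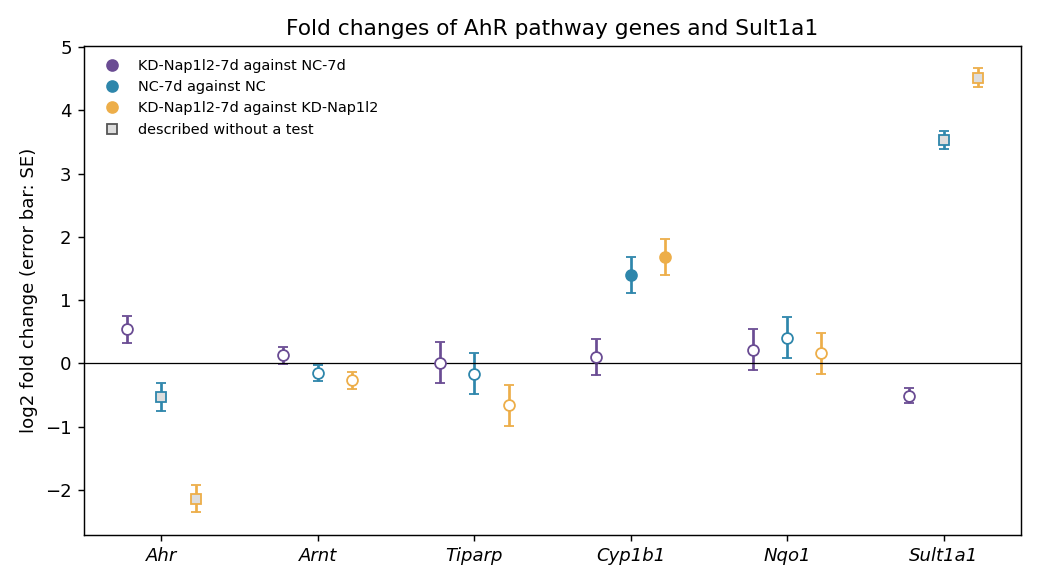
Log2 fold changes of 6 genes (horizontal axis) from the edgeR fit, with SE as error bars, for KD-Nap1l2-7d against NC-7d and for induction in NC and in KD-Nap1l2. Filled circles passed an adjusted p of 0.05, open circles did not, and grey squares are given without a test because they share libraries with the comparison taken as the selecting one. *Cyp1b1* has the only filled circles (1.40 and 1.68).

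AhR ligands arise from tryptophan through the kynurenine and indole routes. Of 10 enzymes on these routes 4 were tested, *Ido2*, *Afmid*, *Kyat1* and *Kyat3*, and *Tdo2*, *Ido1*, *Kmo*, *Kynu*, *Aadat* and *Il4i1* had too few counts, at 0 to 0.19 FPKM. *Kyat1*, a kynurenine aminotransferase, was called higher on induction in NC (0.90, SE 0.22, adjusted p = 0.0482 in edgeR's quasi-likelihood test), with 3.59 and 3.69 FPKM in NC and 7.23 and 6.22 in NC-7d. In KD-Nap1l2 it was 0.72 (SE 0.22, adjusted p = 0.0672). The NC call was among the weakest and held in 7 of 17 alternatives, with adjusted p from 0.0197 to 0.266, the highest without NC replicate 1, and it was lost without any of the NC, NC-7d or KD-Nap1l2-7d libraries. The medians of the 4 genes were 0.25 and 0.63 on induction in NC and KD-Nap1l2, and 0 were called for KD-Nap1l2 against NC at either time by this test, with 0 at an unadjusted p under 0.05, beside 13.7% and 7.85% of all tested genes.

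Nrf2 (*Nfe2l2*) shares *Nqo1* with AhR as a target, and all 9 genes of the Nrf2 list were tested. On induction 3 were called higher in NC and 5 in KD-Nap1l2, beside 4.83% and 6.84% of all tested genes, and 0 lower. *Gclc*, which encodes the catalytic subunit of the first enzyme of glutathione synthesis, measured 7.35 and 9.51 FPKM in NC, 55.0 and 60.8 in NC-7d, 13.9 and 9.21 in KD-Nap1l2 and 77.6 and 80.2 in KD-Nap1l2-7d. It rose by 2.78 (SE 0.19, adjusted p = 0.000534) in NC and 2.82 (SE 0.19, adjusted p = 0.000447) in KD-Nap1l2 in edgeR's quasi-likelihood test, and both calls held in 17 of 17 alternatives. *Txnrd1*, thioredoxin reductase, rose by 0.80 and 0.69 and *G6pdx*, which supplies NADPH, by 1.15 and 0.98 in NC and KD-Nap1l2 (adjusted p = 0.0314, 0.0368, 0.0100 and 0.0130 in the same edgeR test). *Gclm*, the modifier subunit, and *Srxn1*, sulfiredoxin, were called in KD-Nap1l2 (1.12 and 0.93, adjusted p = 0.0139 and 0.0296 in the same edgeR test) and had 0.72 and 0.53 in NC (adjusted p = 0.0779 and 0.189). The differences between both inductions were 0.41 (SE 0.29) for *Gclm* and 0.41 (SE 0.31) for *Srxn1*, with adjusted p-values of 0.813 and 0.820 in that test. Without NC replicate 1 the NC calls of *Txnrd1* (0.72, adjusted p = 0.231) and *G6pdx* (1.10, 0.109) were lost, and without KD-Nap1l2-7d replicate 2 the KD-Nap1l2 calls of *Txnrd1* (0.65, 0.174), *G6pdx* (0.72, 0.0917), *Gclm* (0.88, 0.105) and *Srxn1* (0.72, 0.179) were lost, which are the highest adjusted p-values over their alternatives. NC replicate 2 also ended both NC calls, and NC-7d replicate 1 and either KD-Nap1l2-7d library that of *Txnrd1*. In KD-Nap1l2, KD-Nap1l2 replicate 2 also ended the calls of *Txnrd1*, *Gclm* and *Srxn1*, KD-Nap1l2-7d replicate 1 or either NC library those of *Txnrd1* and *Srxn1*, and KD-Nap1l2 replicate 1 that of *Srxn1*. A fit of only the libraries compared and limma on log2(FPKM + 1) also ended the KD-Nap1l2 call of *Txnrd1*. *Nfe2l2* itself lay at 82.4 to 112.6 FPKM. The list's median was 0.72 in NC and 0.98 in KD-Nap1l2, and it was 0.25 and 0.46 for KD-Nap1l2 against NC before induction and at 7 days, where 0 of the 9 were called by that test and 1 and 5 of the 9 had an unadjusted p under 0.05, beside 13.7% and 7.85% of all tested genes.

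Of 12 relatives in the bHLH-PAS family, some of which share the partner ARNT with AhR, 9 were tested, and *Sim1*, *Npas1* and *Npas2* had too few counts. *Hif3a* and *Arntl* were called higher on induction in both populations, 2 of the 9 beside 4.83% and 6.84% of all tested genes, and 0 were called lower. *Hif3a*, a relative of the hypoxia-inducible factors, measured 0.08 and 0.13 FPKM in NC, 5.74 and 5.35 in NC-7d, 0.02 and 0.04 in KD-Nap1l2 and 5.83 and 5.46 in KD-Nap1l2-7d, a rise of 5.71 (SE 0.26, adjusted p = 6.76e-05) and 7.63 (SE 0.31, adjusted p = 4.32e-05) in edgeR's quasi-likelihood test. The uninduced KD-Nap1l2 libraries held only 2.03 and 5 estimated counts of *Hif3a*, near the limit of 3, so the size of its rise there is uncertain, and it was 7.09 without KD-Nap1l2 replicate 1 and 8.45 with replicate 2 of that group left out. *Arntl*, the partner of CLOCK, rose by 1.18 (SE 0.28, adjusted p = 0.0402) and 1.11 (SE 0.27, adjusted p = 0.0340) in the same edgeR test. The *Arntl* calls were lost without NC replicate 2 in NC (0.94, adjusted p = 0.175) and without KD-Nap1l2-7d replicate 1 in KD-Nap1l2 (0.94, adjusted p = 0.198), the highest over their alternatives. NC replicate 1, NC-7d replicate 1 or either KD-Nap1l2-7d library, and a fit of only the libraries compared, also ended the former, which was 0.75 without NC-7d replicate 1, and either KD-Nap1l2 library or KD-Nap1l2-7d replicate 2 the latter. The hypoxia factors *Hif1a* and *Epas1*, with 48.3 to 90.6 and 11.4 to 24.7 FPKM, had no call. The list's median was -0.059 in NC and -0.38 in KD-Nap1l2, and for KD-Nap1l2 against NC 0 of the 9 were called at either time, with 4 of the 9 at an unadjusted p under 0.05 each time, beside 13.7% and 7.85% of all tested genes.

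**Figure D4:**
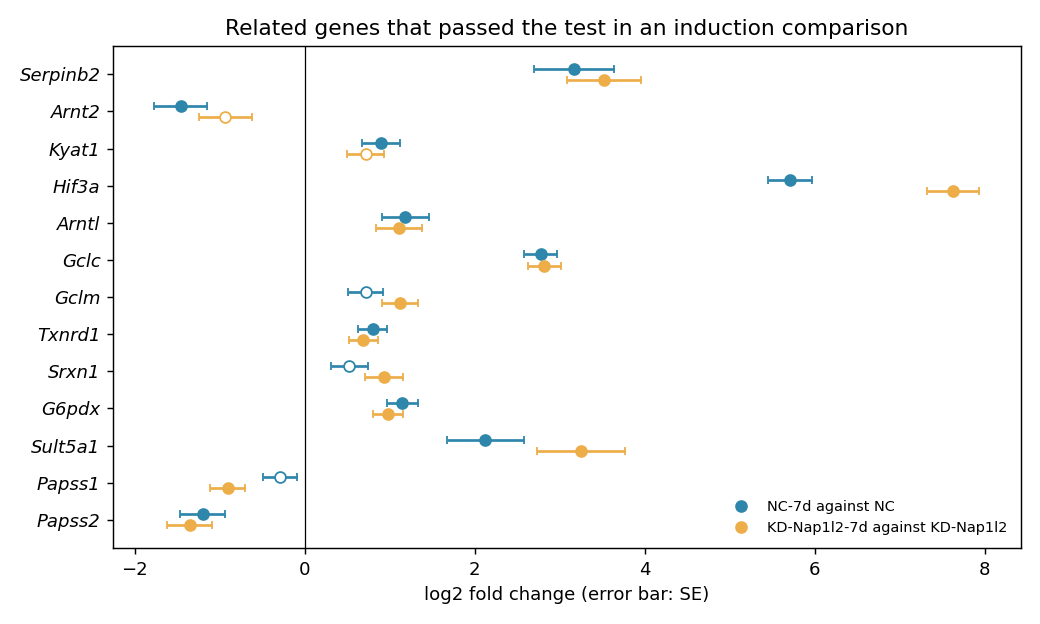
Log2 fold changes (horizontal axis, with SE as error bars) of 13 related genes on induction in NC and in KD-Nap1l2. Filled points passed an adjusted p of 0.05 and open points did not. *Hif3a*, *Serpinb2*, *Gclc* and *Sult5a1* lie above 2 in both, and *Arnt2*, *Papss1* and *Papss2* lie below 0 in both.

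The genes whose level over the 8 libraries was most like that of *Ahr*, by the Pearson correlation of log2 CPM among the 11279 genes that averaged 50 or more normalized counts, were *Plrg1* (0.979), *Eif1ax* (0.978), *Ccdc112* (0.977), *Lrrc8c* (0.974) and *Kcnip4* (0.973). *Kcnip4*, which encodes a potassium channel-interacting protein, had 109.6 and 158.2 normalized counts in KD-Nap1l2, 44.3 and 30.9 in NC, 17.1 and 20.1 in NC-7d and 23.1 and 23.0 in KD-Nap1l2-7d. *Plrg1*, a spliceosome component, had 1138 and 1310 normalized counts in KD-Nap1l2 and 797.5 to 961.3 in the 6 others. For *Sult1a1* they were *Cdo1* (0.994), which encodes cysteine dioxygenase on the route from cysteine to sulfate and taurine, *Washc2* (0.992), *Agt*, which encodes angiotensinogen (0.991), *Hif3a* (0.989) and the selenium carrier gene *Selenop* (0.987). *Cdo1* had 929.8 and 990.0 normalized counts in NC, 475.6 and 413.2 in KD-Nap1l2, 8831 and 8166 in NC-7d and 7319 and 9090 in KD-Nap1l2-7d, so that, like *Sult1a1*, both KD-Nap1l2 libraries were lowest and the 4 induced libraries highest. *Agt* had 261.0 and 397.3 in NC, 103.7 and 120.7 in KD-Nap1l2, 3257 and 2095 in NC-7d and 1784 and 2115 in KD-Nap1l2-7d. These correlations describe 8 libraries that share their groups and the induction step, and carry no test.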

How the data were processed

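RNA-seq libraries of C3H10T1/2 cells were assigned to 4 groups of 2 by their labels. The authors deposited estimated counts for genes and for transcripts, not normalized, and FPKM values that they scaled to transcript length and library size. The submitters' processing notes name RSEM, Bowtie2, BWA and GRCm38.p6, without versions or order. The authors' own columns of group averages and of comparisons (fold changes and p-values) were not used.

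Counts were rounded (41.1% of the genes had fractional counts in some library), normalized by TMM, filtered with filterByExpr and fitted over all 8 libraries with edgeR 4.0.16 in R 4.3.3. Each contrast was given a quasi-likelihood test, and Benjamini-Hochberg adjusted p-values under 0.05 over 13470 genes were taken as calls. SEs are the size of the log2 fold change over the root of the F statistic. With 2 libraries a group, no exact test between 2 groups can reach a p-value of 0.05. Alternatives used DESeq2 1.42.0, RLE size factors, other filters, limma 3.58.1 on log2(FPKM + 1) and log2(FPKM + 0.1), the replicate number as a block, only the libraries compared, gene counts summed from transcripts, and each library left out. The edgeR, DESeq2 and limma fits were tried on simulated counts, only for KD-Nap1l2 against NC before induction and at 7 days. The limma trial used counts scaled to library size in place of FPKM. The other steps were not tried on simulated data. The genes and lists were chosen with earlier results of these data known. Named are the 8 genes, genes of the lists that were called or that complete a list, and the 5 genes most correlated with *Ahr* and with *Sult1a1*. *Nap1l2*, *Col2a1*, *Igf2*, *Sgf29*, *Gm48236*, the cell type markers and, in lists above 12 genes, the genes left untested or with uncertain counts are named beside this rule. A gene of the receptor complex list entered its counts and medians but is not reported here. Gene positions are from GENCODE vM21 (GRCm38) and promoters from RefSeq. Figures were drawn with matplotlib 3.10.9.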

Additional observations from a re-analysis of the deposited data

How the results depend on the processing

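Of the 6 tested genes, 2 were called between KD-Nap1l2 and NC before induction, and this was 0 with the replicate block, 0 in a fit of only the libraries compared, and 0 to 3 when a library was left out, with 0 without NC replicate 1, NC replicate 2, KD-Nap1l2 replicate 2, KD-Nap1l2-7d replicate 1 or KD-Nap1l2-7d replicate 2. On induction in NC, 2 were called, *Cyp1b1* and *Sult1a1*, beside 4.83% of all tested genes called higher and 3.38% lower. The *Sult1a1* value shares libraries with the comparison taken as the selecting one, so nothing is read from its call. For the difference between both times, 0 were called and DESeq2 called 1, *Ahr*, beside 100 of 13167 genes (0.759%) under DESeq2. This difference contains the comparison taken as the selecting one, so nothing is read from the *Ahr* call. The replicate block changed no other call of these 6 genes, and it ended the call of *Kyat1* in NC. The numbers pair nothing in the labels, and deviations of same-numbered libraries correlated at -0.061 to 0.104, so only the number is shared. Directions turned only where the main fit gave no call, and the largest such value was -0.66 (*Tiparp* on induction in KD-Nap1l2). Over the leave-outs *Cyp1b1* ran from -0.50 to 0.063 before induction, -0.20 to 0.48 at 7 days and -0.014 to 0.67 for the difference. *Tiparp* ran from -0.23 to 1.003, -0.050 to 0.067 and -0.99 to 0.24 in the same order. *Nqo1* ran from -0.18 to 0.52 at 7 days and -0.69 to 0.10 for the difference, and *Arnt* from -0.25 to 0.026 for the difference. On induction in KD-Nap1l2 *Tiparp* ran from -1.15 to 0.080 and *Nqo1* from -0.23 to 0.47. Of the values of single genes under all alternatives, 745 kept direction and side of the threshold, 91 lost the call, 3 gained it and 16 turned. The cause was not tested.

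Over all genes, the 11 calls before induction became 453 with DESeq2, 160 without a filter on low counts, 33 and 18 with limma, 4 with at least 10 counts in every library or with the replicate block, 0 in a fit of only the libraries compared, and 0 to 562 when a library was left out. At 7 days DESeq2 called 78, and leaving out NC-7d replicate 1 gave 1. For the difference DESeq2 called 100, no filter gave 1, and leaving out NC-7d replicate 1 gave 19. Induction in NC gave 122 to 1490 calls with a library left out and in KD-Nap1l2 305 to 2218. A library left out leaves 1 in its group, which is assumed to vary like the others. Depth limits *Cyp1a1* and *Ahrr*, which had 0 to 6 counts in each library, and *Nap1l2*, which had 2 to 15.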
